A study of Homo sapiens with 12 samples.

Results

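The mitotic kinesins described here are 10 motor genes that work on the spindle or at the cleavage furrow: KIF11, KIF14, KIF15, KIF18A, KIF20A, KIF20B, KIF22, KIF23, KIF2C and KIF4A. The set is defined by gene names, not by a threshold on values, though earlier results of these data were known when it was drawn up. All 10 were found among the 63677 gene IDs of the count table and passed the filter on low counts, as did 26076 IDs in all. RNA had been sequenced from LNCaP cells, an androgen-responsive line of human prostate cancer grown in hormone-proficient medium, in 12 libraries. There were 3 libraries from each of 4 groups of cells: those with the pLPLUC vector control, those with USP22 overexpression, those with a control shRNA and those with shRNA-mediated USP22 depletion, and the cells of both shRNA groups had been given 1 ug/mL doxycycline, repeated every 48 hours, for 5 days. The labels list no doxycycline for the vector control or the overexpressing cells, name 1 shRNA against USP22, and leave unsaid whether a line was a clone and whether the replicates came from separate cultures. The p-values therefore cover only the spread between these libraries, which may be technical. USP22 is a deubiquitinase that removes ubiquitin from histones as part of the SAGA coactivator, and the comparisons ask how its gain or loss changes the transcripts of these motors.

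Kinesins are motor proteins that use ATP to move along microtubules or to take tubulin off their ends. In dividing cells some of them push the spindle poles apart, others move or hold the chromosomes, and others build the midzone and the furrow that separates the daughter cells. Their transcripts are known to be low in resting and early cycling cells and to rise toward mitosis. Promoters of such genes often carry a cell cycle genes homology region, abbreviated CHR, which repressor and activator complexes built on the MuvB core can bind, and a CCAAT box, which NF-Y binds. In bulk RNA, fewer cells of a cycle phase and less RNA per cell cannot be told apart.

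The promoters of 6 of the 10 genes are shown here. They are the 4 that hold both elements in the bases printed, and KIF22 and KIF2C. The KIF22 transcript changed least on depletion, and the KIF2C window lacks both elements. Each sequence is the 140 bases just upstream of the RefSeq transcript start on the GRCh38.p14 build, written 5' to 3' on the gene's own strand. Capitals mark matches to the CHR letters TTTGAA and to CCAAT, searched on both strands, so that the same elements also read TTCAAA and ATTGG. The windows lie at chr10:92592990-92593129 for KIF11 and chrX:70289964-70290103 for KIF4A, at chr11:28108157-28108296 on the minus strand for KIF18A, at chr15:69414209-69414348 for KIF23, at chr16:29790611-29790750 for KIF22 and at chr1:44739697-44739836 for KIF2C, on the plus strand where no strand is named.
KIF11: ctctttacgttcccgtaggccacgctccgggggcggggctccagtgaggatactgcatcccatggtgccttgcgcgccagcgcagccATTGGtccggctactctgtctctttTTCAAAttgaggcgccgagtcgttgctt
KIF4A: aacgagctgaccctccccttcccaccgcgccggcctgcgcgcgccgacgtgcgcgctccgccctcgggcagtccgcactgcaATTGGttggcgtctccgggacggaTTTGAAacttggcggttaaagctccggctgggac
KIF18A: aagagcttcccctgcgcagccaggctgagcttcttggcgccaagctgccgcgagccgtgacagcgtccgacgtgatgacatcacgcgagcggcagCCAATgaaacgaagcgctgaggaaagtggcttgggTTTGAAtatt
KIF23: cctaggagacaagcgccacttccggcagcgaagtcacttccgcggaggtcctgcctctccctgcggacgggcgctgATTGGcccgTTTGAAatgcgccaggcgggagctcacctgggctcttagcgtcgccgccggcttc
KIF22: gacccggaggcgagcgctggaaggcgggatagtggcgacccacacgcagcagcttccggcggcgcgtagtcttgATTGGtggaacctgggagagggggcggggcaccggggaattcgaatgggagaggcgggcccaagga
KIF2C: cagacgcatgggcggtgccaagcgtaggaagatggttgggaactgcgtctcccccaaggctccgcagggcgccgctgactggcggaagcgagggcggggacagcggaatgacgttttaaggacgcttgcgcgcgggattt
KIF11, KIF4A, KIF18A and KIF23 have both elements, KIF22 has a CCAAT box and no CHR match, and KIF2C has neither.

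Over the full window of the table, 250 bases before to 50 after the start, the CHR letters were found in 7 of the 10 kinesin promoters (70.0%) and in 18.2% of 27305 genes. CCAAT was found in 8 of the 10 (80.0%) against 39.7%, and both together in 6 of the 10 (60.0%) against 7.26%. In KIF14 and KIF20B, which hold both, the CHR letters lay after the start, from base 2 and base 25 on. Among other families searched the same way, CHR was present in 19 of 30 other G2 and mitosis genes (63.3%), in 11 of 14 kinesin partners on the spindle and midzone (78.6%), in 1 of 25 S phase and replication genes (4.0%), in 1 of 22 transport and ciliary kinesins (4.55%) and in 1 of 19 dynein and dynactin genes (5.26%). KIF22, KIF20A and KIF2C were the members without the CHR letters. After the sequences had been seen, the related letters TTCGAA and TTTAAA were searched as well. TTCGAA occurred in the KIF22 promoter, 27 to 22 bases before the start. It was found in 1.82% of all genes and in 4 of 30 other G2 and mitosis genes (13.3%). TTTAAA occurred in KIF14, KIF20A, KIF23 and KIF2C (40.0%) and in 14.5% of all genes. Its share was 26.7% in the other G2 and mitosis genes and 28.6% in the partners on the spindle and midzone. A match describes the letters in the window and is not a measured binding site.

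**Figure D1:**
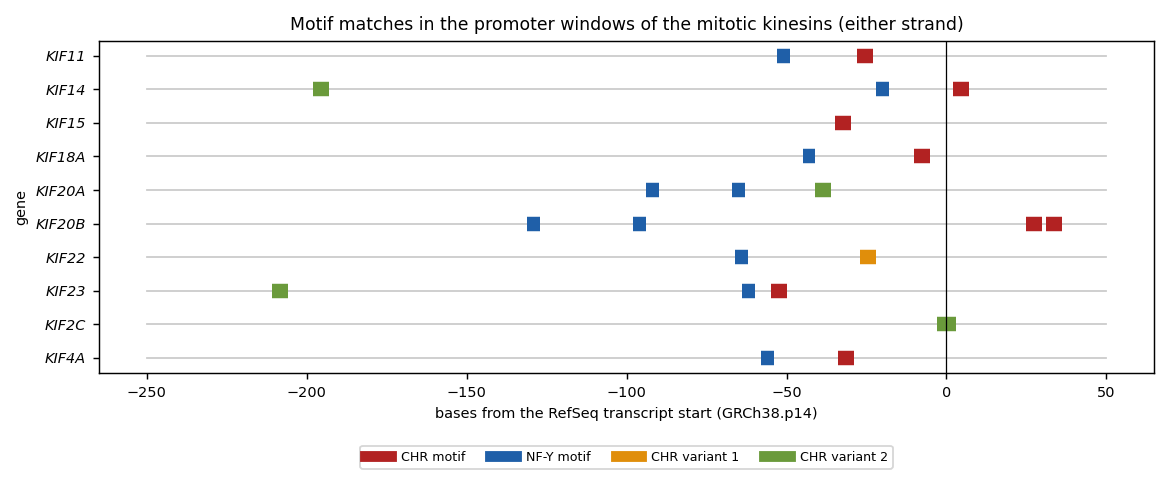
Positions of CHR, CCAAT and the CHR variant letters in the RefSeq promoter windows of the 10 mitotic kinesins (x axis: bases from the transcript start, 1 row per window). CHR and CCAAT stand close together and upstream of the start in KIF11, KIF4A, KIF18A and KIF23, and TTCGAA (CHR variant 1) is drawn in KIF22 alone, for which the first of its 2 windows is shown. Variant 2 is TTTAAA, and CCAAT is the NF-Y motif of the legend.

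The libraries held 77607469 to 103690001 counted reads, and the 10 genes were counted between 933 and 14480 times in a library. USP22 (ENSG00000124422) followed the labels, at 482, 491 and 565 CPM (read counts scaled to a common library size) in the vector control, 1498, 1406 and 1495 CPM in overexpressing cells, 480, 473 and 480 CPM with the control shRNA and 257, 265 and 251 CPM after depletion. All 9 markers of LNCaP and luminal prostate cells were expressed, with medians over the libraries from 167 CPM (KRT18) to 1065 CPM (FOLH1). Of the markers of other cells, KRT5, TP63, COL1A2 and PECAM1 had a median of 0 CPM, whereas COL1A1 (10.54 CPM), VWF (10.52 CPM), COL3A1 (2.27 CPM) and KRT14 (1.66 CPM) were expressed. Vector control replicate 3 stood apart: its mitochondrial genes took 0.691% of the reads, against 1.04% and 1.24% in its group mates. Its log2 difference from the mean of those mates was -0.81 for KIF20B and 0.32 for KIF22. The counts of called kinesins, and the counts of other lists on depletion, are therefore also given without that library.

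**Figure D2:**
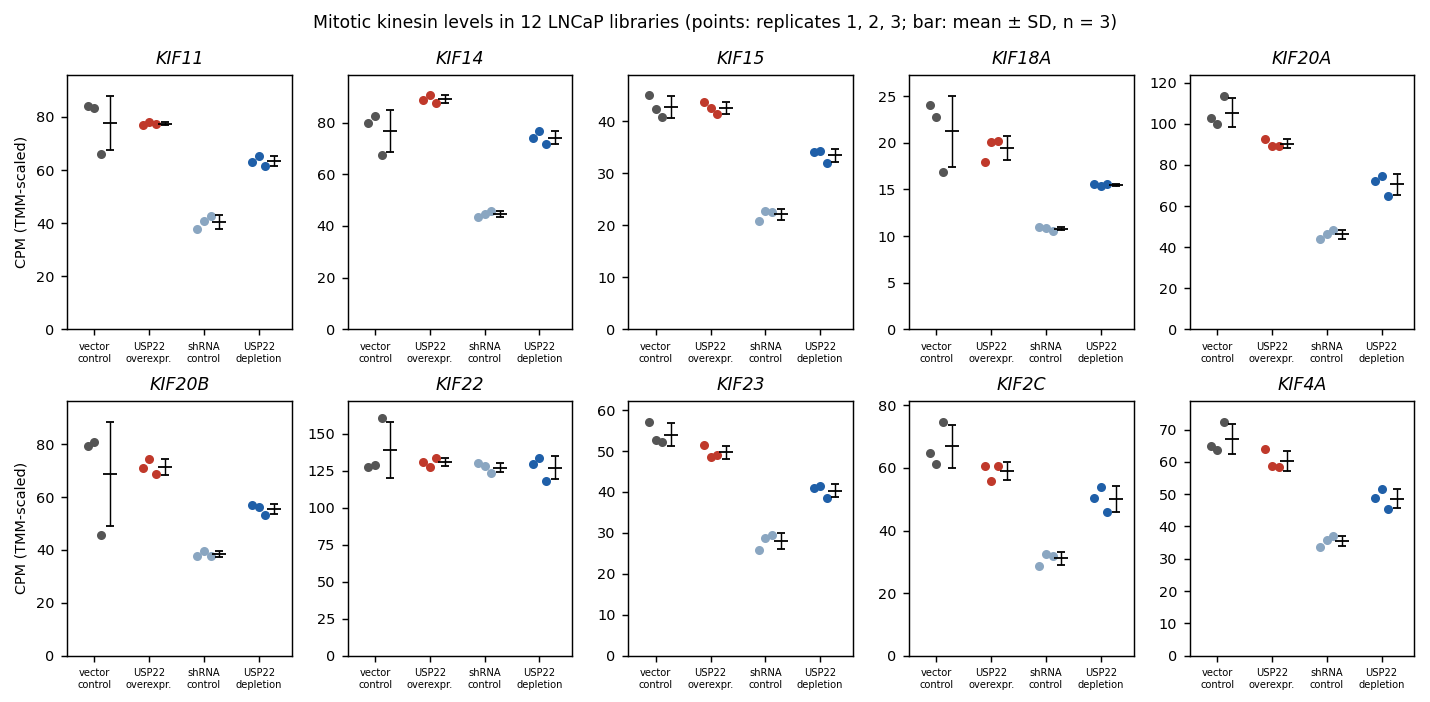
CPM of each mitotic kinesin in the 12 libraries (points: single libraries, bars: mean ± SD of 3 libraries, 1 panel per gene). In 9 panels the shRNA control libraries are the lowest, whereas the KIF22 panel shows overlapping groups.

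The 10 motors were expressed at unequal levels, which are compared here per kilobase of exon. The length is that of all GENCODE exons of a gene joined. It need not match the exons that were counted or expressed, so the order of the genes rests on that length. KIF22, a chromokinesin that pushes chromosome arms away from the poles, had the highest level in every group, at 32.2 ± 4.32 CPM per kb in the vector control and 29.5 ± 0.781 CPM per kb in the shRNA control (SD, n = 3 for each group). KIF20A, a midzone motor, came next, at 26.6 ± 1.80 CPM per kb in the vector control, 22.8 ± 0.525 after overexpression, 11.7 ± 0.580 in the shRNA control and 17.8 ± 1.27 after depletion. KIF18A, which damps chromosome oscillations at the metaphase plate, was the lowest in all groups, from 2.32 ± 0.0451 CPM per kb in the shRNA control to 4.55 ± 0.816 in the vector control. Between these ends the order of the means was KIF2C, KIF11, KIF4A, KIF14 and KIF20B in every group, followed by KIF15 and KIF23. KIF2C and KIF11 overlapped in every group, and KIF15 and KIF23 overlapped in all groups but the overexpressing cells, so their order was not resolved. KIF11 and KIF4A also overlapped in both controls, KIF14 and KIF20B as well as KIF20B and KIF23 in the vector control, and KIF4A and KIF14 after depletion.

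Depletion of USP22 was followed by higher transcript levels of 9 of the 10 mitotic kinesins relative to the shRNA control, by 1.37- to 1.66-fold. None was lower, and KIF22 did not pass the test. In these 9 genes the 3 depletion libraries lay above all 3 shRNA control libraries. Among all 26076 tested genes, 9.40% were called higher, 10.4% lower and 19.8% in either direction, and 20.3% had depletion libraries that all lay above the controls. The median log2 fold change was 0.57 for the 10 kinesins and 0.0002 for all genes. Calls are edgeR quasi-likelihood tests with Benjamini-Hochberg adjustment over all tested genes, at a threshold of 0.05. Vector control replicate 3 is not among the libraries compared and acts here by way of the common variance estimate. Without it 9 were again higher, where 4077 of all genes were called higher.

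Of the motors that keep the poles apart, KIF11 slides antiparallel microtubules and is the main outward force in early mitosis. KIF11 (ENSG00000138160) stood at 37.7, 41.0 and 42.8 CPM in the shRNA control and at 62.9, 65.3 and 61.7 CPM after depletion. All depletion libraries were high and the groups were far from overlapping, for a 1.56-fold rise (log2 fold change 0.64, SE 0.08, edgeR adjusted p = 3.579e-05). KIF15, which can hold a spindle bipolar when KIF11 is blocked, rose alongside it. KIF15 (ENSG00000163808) was at 20.9, 22.8 and 22.6 CPM in the shRNA control and at 34.1, 34.3 and 31.9 CPM after depletion, 1.51-fold higher (log2 0.60, SE 0.06, edgeR adjusted p = 5.851e-06).

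The motors of chromosome movement split. KIF2C, which takes tubulin off microtubule ends and frees wrongly attached kinetochores, had 28.8, 32.6 and 31.9 CPM in the shRNA control and 50.5, 54.0 and 45.8 CPM after depletion. KIF2C (ENSG00000142945) rose 1.61-fold (log2 0.69, SE 0.08, edgeR adjusted p = 2.123e-05), and its groups did not overlap. KIF18A (ENSG00000121621) went from 10.98, 10.88 and 10.58 CPM to 15.6, 15.4 and 15.6 CPM, with little spread in either group. Its rise was 1.43-fold (log2 0.52, SE 0.10, edgeR adjusted p = 0.001889). KIF4A, a chromokinesin that also sets the length of the midzone, showed the smallest fold of the 9. KIF4A (ENSG00000090889) had 33.8, 35.8 and 37.0 CPM in the shRNA control and 48.7, 51.7 and 45.6 CPM after depletion, or 1.37-fold (log2 0.45, SE 0.07, edgeR adjusted p = 2.467e-04).

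KIF22 (ENSG00000079616) was the member that did not pass the test. It stood at 130, 128 and 123 CPM in the shRNA control and at 130, 133 and 118 CPM after depletion, so that the highest and the lowest of these 6 libraries were both depletion libraries. Its log2 value was -0.0016 (edgeR adjusted p = 0.9926), with a 95% interval from -0.17 to 0.17. The intervals of the 9 other members all lay above that upper bound, the lowest of them starting at 0.23. The exons of KIF22 share 13.0% of their bases with an antisense gene on the opposite strand (AC009133.4), the largest such overlap of the 10 members. The table does not list that gene under its own ID, and the strand setting of the counting is not given, so antisense reads cannot be told apart from those of KIF22. The part of this overlap in its level was not tested.

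All 4 motors of the midzone and of cytokinesis rose. KIF14, which brings citron kinase to the furrow, showed the largest fold of the family. KIF14 (ENSG00000118193) was at 43.5, 44.7 and 45.9 CPM in the shRNA control and at 74.0, 76.7 and 71.9 CPM after depletion, a 1.66-fold rise (log2 0.73, SE 0.07, edgeR adjusted p = 1.916e-06). KIF20A, which carries the Aurora B complex to the midzone, had 43.8, 46.6 and 48.4 CPM in the shRNA control and 72.0, 74.8 and 65.0 CPM after depletion. Depletion replicate 3 was the lowest of its group, yet all 3 exceeded the controls, and KIF20A (ENSG00000112984) rose 1.53-fold (log2 0.61, SE 0.07, edgeR adjusted p = 1.051e-05). KIF23, the motor of the centralspindlin complex, rose by less. KIF23 (ENSG00000137807) went from 25.8, 28.8 and 29.5 CPM to 41.1, 41.4 and 38.5 CPM (1.44-fold, log2 0.52, SE 0.07, edgeR adjusted p = 3.754e-05). KIF20B, a motor needed for late cytokinesis, had 37.5, 39.6 and 37.7 CPM with the control shRNA and 57.0, 56.3 and 53.3 CPM after depletion. KIF20B (ENSG00000138182) rose 1.45-fold (log2 0.54, SE 0.14, edgeR adjusted p = 0.01387), and its adjusted p became 0.05078 when shRNA control replicate 1 was left out.

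**Figure D3:**
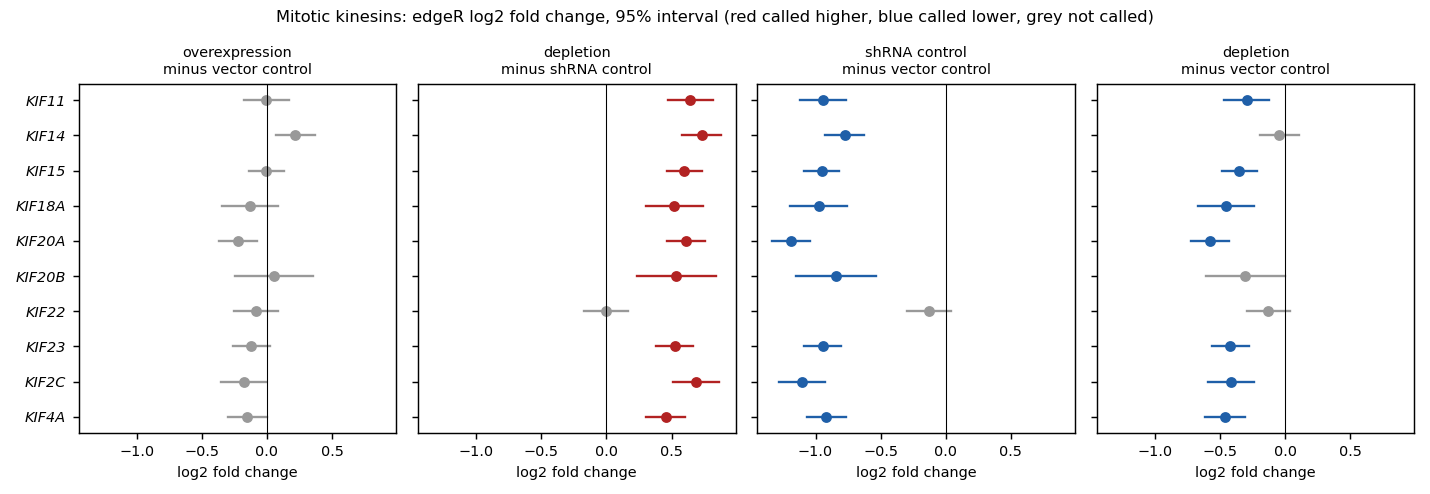
Log2 fold change of each mitotic kinesin with its 95% interval in the comparisons (x axis: log2 fold change, 1 row per gene). On depletion against the shRNA control the intervals of 9 genes lie above 0 and that of KIF22 spans 0.

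Summed over the 10 genes, the level was 424.4 ± 10.01 CPM in the shRNA control and 578.6 ± 28.5 CPM after depletion (SD, n = 3 each). Without KIF22 the sums were 297.3 ± 12.7 and 451.6 ± 20.7 CPM. On the per-kilobase scale KIF22 made up 33.4 ± 1.55% of the family's level in the shRNA control and 24.8 ± 0.270% after depletion. The shares in the individual libraries, 32.0 to 35.1% and 24.5 to 25.0%, did not overlap. The share was 21.5% in both the vector control and the overexpressing cells, where it ranged from 19.7 to 24.6% and from 21.2 to 22.04%.

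Other genes of G2 and mitosis, and genes that mark S phase, moved with the family. The 34 other G2 and mitosis genes summed to 1822 to 1962 CPM in the shRNA control and 2643 to 2848 CPM after depletion. In the vector control they summed to 3389 to 3633 CPM. The 29 S phase and replication genes summed to 1708 to 1810 CPM, 2327 to 2569 CPM and 3230 to 3631 CPM in the same order of groups. Of the 9 LNCaP and luminal markers 6 fell on depletion, 1 rose and 2 were not called. Among all genes 10.4% fell and 9.40% rose. The 9 markers summed to 6428 to 6629 CPM in the shRNA control and 4592 to 5100 CPM after depletion. Of 15 markers of other cells, 6 passed the filter on low counts, and some of these moved between the groups. The 3 endothelial markers summed to 6.63 to 7.69 CPM in the shRNA control and 11.95 to 14.7 CPM after depletion, carried by VWF (log2 0.90, edgeR adjusted p = 4.832e-05), with PECAM1 at 0 in every library and CDH5 at most at 0.0508 CPM. VWF was also lower in the shRNA control than in the vector control (-0.69, edgeR adjusted p = 1.725e-04), so it followed the direction of the 9 kinesins in both comparisons. KRT14, the basal marker that was expressed, was higher in the shRNA control than in the vector control (2.54, edgeR adjusted p = 2.067e-09), at 3.53 ± 0.142 and 0.607 ± 0.0379 CPM (SD, n = 3 each), with KRT5 and TP63 at most at 0.0244 CPM. Of the fibroblast markers COL1A1 was higher in the shRNA control than in the vector control (1.10) and COL3A1 was lower (-1.24), and COL3A1 fell again on depletion (-0.79), while COL1A2 was at most at 0.0254 CPM. The 4 leukocyte markers summed to at most 0.228 CPM. The part of these markers in the level of the kinesins was not tested. The part of cycle phase in the level of the kinesins was not tested.

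The family also differed between the controls. Against the vector control, the shRNA control was lower for 9 of the 10 kinesins, and the libraries of the 2 groups did not overlap in any of the 9. Among all genes, 21.3% were called lower, 21.7% higher and 43.0% in either direction, and 24.2% had shRNA control libraries that all lay below the vector control. The median log2 fold change was -0.94 for the family and 0.02 for all genes, and -1.01 for the family without vector control replicate 3, with 9 calls again. The groups differ in vector, shRNA and doxycycline, whose parts cannot be told apart, and this comparison shares its shRNA control libraries with that of depletion.

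KIF20A had the largest gap between the controls, with 103, 100 and 114 CPM in the vector control libraries against 43.8 to 48.4 CPM in the shRNA control. This is 0.439 times the vector control level (log2 -1.19, edgeR adjusted p = 2.005e-09). KIF2C was at 64.9, 61.1 and 74.6 CPM in the vector control and fell by 1.11 on the log2 scale (edgeR adjusted p = 2.83e-08). The smallest of the 9 called gaps was that of KIF14, at 80.0, 82.4 and 67.3 CPM in the vector control and a log2 value of -0.78 (edgeR adjusted p = 2.105e-07). KIF22, at 127, 129 and 160 CPM in the vector control, was at -0.13 on the log2 scale (edgeR adjusted p = 0.2153), and of -0.01 (adjusted p = 0.8502) without vector control replicate 3.

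After depletion the means of 9 of the kinesins lay between those of the 2 controls. KIF22 did not, at 127 CPM in the shRNA control and after depletion and 139 CPM in the vector control. Compared directly with the vector control, the depletion libraries were lower for 7 of the 10 genes and higher for none, where 18.6% of all genes were called lower, 16.2% higher and 34.8% in either direction. KIF20A was the farthest from the vector control level, at 0.67 times that level (log2 fold change -0.58, edgeR adjusted p = 7.104e-06). KIF14 was the nearest, with 74.0, 76.7 and 71.9 CPM after depletion against 67.3 to 82.4 CPM in the vector control. Its log2 value was -0.05 (edgeR adjusted p = 0.6568), with an interval from -0.19 to 0.10. Without vector control replicate 3 the count was 9 lower, as KIF14 (-0.13, edgeR adjusted p = 0.02312) and KIF20B (-0.53, adjusted p = 7.952e-09) were then called. The count over all genes at that setting is not given here. With no filter on low counts KIF20B was called too (-0.26, edgeR adjusted p = 0.003168). The call of KIF11 (-0.30, edgeR adjusted p = 0.00943) was lost without depletion replicate 1 (adjusted p = 0.05641) or replicate 3 (adjusted p = 0.06592).

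Overexpression of USP22 left the family near the vector control level, with log2 values below 0 for 8 of the 10 genes and above 0 for 2. Among all 26076 genes 13442 were below 0. None of the 10 genes was called by edgeR, where 4.11% of all genes were called, 1.51% higher and 2.60% lower. At an unadjusted p under 0.05 there were 4 of the 10, KIF14 higher and KIF20A, KIF2C and KIF4A lower. The share of all genes at that unadjusted level was not taken, so the 4 cannot be set against a background. Limma voom called 0 of the 10. DESeq2 called 2, KIF14 higher and KIF20A lower, with 1786 calls over all genes. The median log2 fold change was -0.10 for the family and -0.01 for all genes, and the 95% intervals of the 9 genes other than KIF22 lay within -0.37 and 0.37. The 10 genes summed to 719.2 ± 10.03 CPM in vector control cells and to 690.0 ± 7.31 CPM in overexpressing cells (SD, n = 3 per group). The sums in single libraries, 709.8 to 729.7 CPM and 685.7 to 698.5 CPM, did not overlap.

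Single members differed in direction. KIF14 stood at 80.0, 82.4 and 67.3 CPM in the vector control and at 88.9, 90.7 and 87.5 CPM in overexpressing cells, and all 3 overexpression libraries were the higher ones (log2 fold change 0.22, SE 0.07, edgeR adjusted p = 0.1005). KIF20A had 103, 100 and 114 CPM in the vector control, and the overexpression libraries were all lower at 92.7, 89.2 and 89.0 CPM (log2 -0.22, SE 0.07, edgeR adjusted p = 0.08401). KIF23 and KIF2C also had all overexpression libraries below all vector control libraries, with log2 values of -0.12 and -0.18 (edgeR adjusted p = 0.3554 and 0.2582), where 12.8% of all genes had such lower libraries and 9.64% had higher ones. In these members the groups did not overlap, yet the differences did not pass the test over all genes. Vector control replicate 3 decided others. Without it KIF18A (-0.27, edgeR adjusted p = 0.008341) and KIF20B (-0.17, adjusted p = 0.03691) were called lower. The calls over all genes then went from 1072 to 1842, with 754 higher and 1088 lower. With that library KIF18A was at -0.13 (edgeR adjusted p = 0.5284) and KIF20B at 0.05 (adjusted p = 0.8839). KIF11 and KIF15 had log2 values of -0.005 and -0.006.

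The 2 responses were compared by testing the depletion response minus the overexpression response, which share no library. The difference was above 0 for all 10 kinesins, and 8 of them were called higher. Among all 26076 genes 12972 were above 0. Of all genes 5.98% were called in that direction, 4.91% in the other and 10.9% in either. The median was 0.625 for the family against -0.0025 for all genes. The difference was largest for KIF2C (0.87 on the log2 scale, edgeR adjusted p = 1.873e-04) and KIF20A (0.83, adjusted p = 5.36e-05). KIF22 (0.08, edgeR adjusted p = 0.7043) and KIF20B (0.48, adjusted p = 0.1503) did not pass. Without vector control replicate 3 KIF20B did (0.71, edgeR adjusted p = 7.293e-08), which made 9, as it did with no filter on low counts (0.49, edgeR adjusted p = 1.341e-04). Without that library 2746 of all genes were called higher and 2574 lower, against 1560 and 1280 with it.

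**Figure D4:**
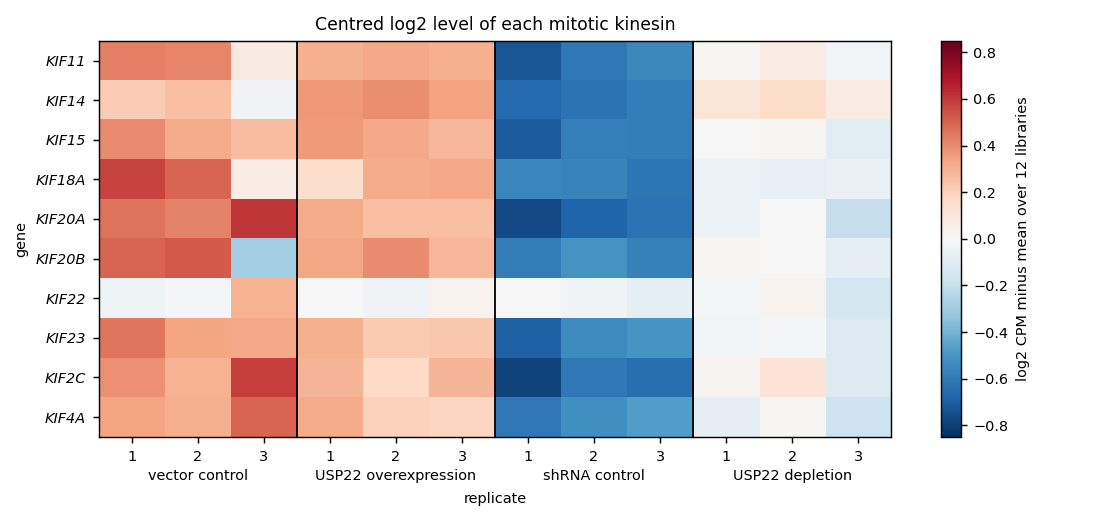
Log2 CPM of the 10 kinesins, each centred on its own mean over the 12 libraries (columns: libraries by group, rows: genes, colour: log2 difference from the mean). The shRNA control columns are lowest in 9 rows. The column of vector control replicate 3 is blue for KIF20B, nearly white for KIF11, KIF14 and KIF18A, and red for the other genes.

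Most members followed a common profile across the 12 libraries. Centred on each gene's own mean, the mean profile of the 10 lay at 0.37, 0.33 and 0.24 in the vector control, at 0.27, 0.26 and 0.25 after overexpression, at -0.61, -0.53 and -0.52 in the shRNA control and at -0.01, 0.03 and -0.09 after depletion, all log2 differences. KIF23 was closest to that mean, with a root mean square difference of 0.0470, and KIF22 was farthest, at 0.330, followed by KIF20B at 0.175. Within the vector control the members did not move together. Replicate 3 was higher than the mean of its mates for KIF22 (0.32), KIF2C (0.24), KIF4A (0.17) and KIF20A (0.16) and lower for the other 6, down to KIF20B (-0.81) and KIF18A (-0.47), on the log2 scale. The 4 that were higher have the shortest exon lengths of the family (3646 to 4533 bases) and the 6 that were lower have 4668 to 7277 bases, a split noticed after the values were seen and not tested.

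The genes outside the family with the most similar profile, among 10968 expressed genes with a mean of at least 5 CPM, were WDHD1, GINS1, MCM8, RRM2 and KNTC1. Their root mean square differences from the mean profile of the kinesins were 0.0328, 0.0378, 0.0407, 0.0411 and 0.0449 on the log2 scale over the 12 libraries, against a median of 0.358 over all genes ranked. This ranking is a description, since the same libraries define both profiles.

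The rest of the superfamily was mixed. Of 6 further kinesins with roles in division, 5 were tested, and KIF18B, a plus-end regulator of astral microtubules, rose on depletion from 16.9 ± 1.23 to 24.6 ± 0.512 CPM (SD, n = 3 each; log2 0.55, edgeR adjusted p = 9.378e-05). CENPE, which carries chromosomes to the plate, was at 74.6 ± 3.36 and 91.5 ± 0.850 CPM (log2 0.29, edgeR adjusted p = 0.08466). KIFC1, a minus-end motor that focuses the poles, was at 26.5 ± 1.82 and 31.4 ± 1.52 CPM (log2 0.24, edgeR adjusted p = 0.08646). KIF2A did not pass either (log2 0.12, edgeR adjusted p = 0.3227), and KIF4B, a copy of KIF4A made by retrotransposition, had at most 20 counts in a library (log2 -0.32, edgeR adjusted p = 0.7129). KIF4A and KIF4B are near-identical, and how reads that fit both were counted is not known here. In 4 of the 5, all but KIF4B, the depletion libraries lay above all shRNA control libraries, where 20.3% of all genes had such libraries. By the test the list counted 1 higher and none lower on depletion, where 9.40% and 10.4% of all genes were called. Without vector control replicate 3 there were 4 higher, while the calls over all genes went from 5172 to 8359. Between the controls CENPE (-0.86), KIFC1 (-1.11) and KIF18B (-0.98) were lower in the shRNA control on the log2 scale. These were 3 of the 5, where 21.3% of all genes were called lower. Without vector control replicate 3 the count was 4, and the count over all genes at that setting is not given here.

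The 31 tested transport and ciliary kinesins did not share the rise. On depletion 3 of them rose and 7 fell, where 9.40% and 10.4% of all genes did, with a median log2 fold change of -0.13. Without vector control replicate 3 there were 4 rises and 12 falls, while the calls over all genes went from 5172 to 8359. KIF5C, a neuronal type heavy chain of conventional kinesin, fell from 35.6 ± 1.01 to 23.4 ± 0.285 CPM (log2 -0.60, edgeR adjusted p = 1.051e-05). It also fell on overexpression, from 36.2 ± 0.902 to 21.4 ± 1.90 CPM (log2 -0.76, edgeR adjusted p = 4.346e-06). KIF13A, an endosomal carrier, fell by 0.43 on the log2 scale after depletion. KIF24, a centriolar kinesin that restrains cilia, rose by 0.47, and KIF9, a motor of motile cilia, by 0.46. KIFAP3, the adaptor of heterotrimeric kinesin, rose on overexpression by 0.27 (edgeR adjusted p = 0.03895). The minus-end motor dynein and its partners were as mixed: on depletion 3 of 21 rose, SPDL1 (0.50) and NDE1 (0.36) among them, and 3 fell, DYNC1H1 (-0.32) and DYNC1LI2 (-0.21) among them, against the same shares of all genes, with a median of -0.03. Without vector control replicate 3 the count was 3 higher and 6 lower, where 4077 of all genes were called higher and 4282 lower.

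Most genes for proteins that act with these motors rose too. Of 18 partners on the spindle and midzone, 17 rose on depletion, where 9.40% of all genes did. Without vector control replicate 3 there were 17 again, where 4077 of all genes were called higher. The median log2 fold change of the partners was 0.51. They included BIRC5 (0.66), the survivin subunit of the Aurora B complex that KIF20A carries, PRC1 (0.52), which bundles the midzone microtubules, and NUSAP1 (0.63) and TPX2 (0.51), which bind spindle microtubules. KIFBP, a binding partner that restrains several kinesins, was the exception (-0.10, edgeR adjusted p = 0.2643). In the shRNA control against the vector control 17 of the 18 were lower, where 21.3% of all genes were. On overexpression GTSE1, a microtubule-binding protein of G2 and mitosis, fell (-0.36, edgeR adjusted p = 0.01674), and the list's median was -0.09.

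**Figure D5:**
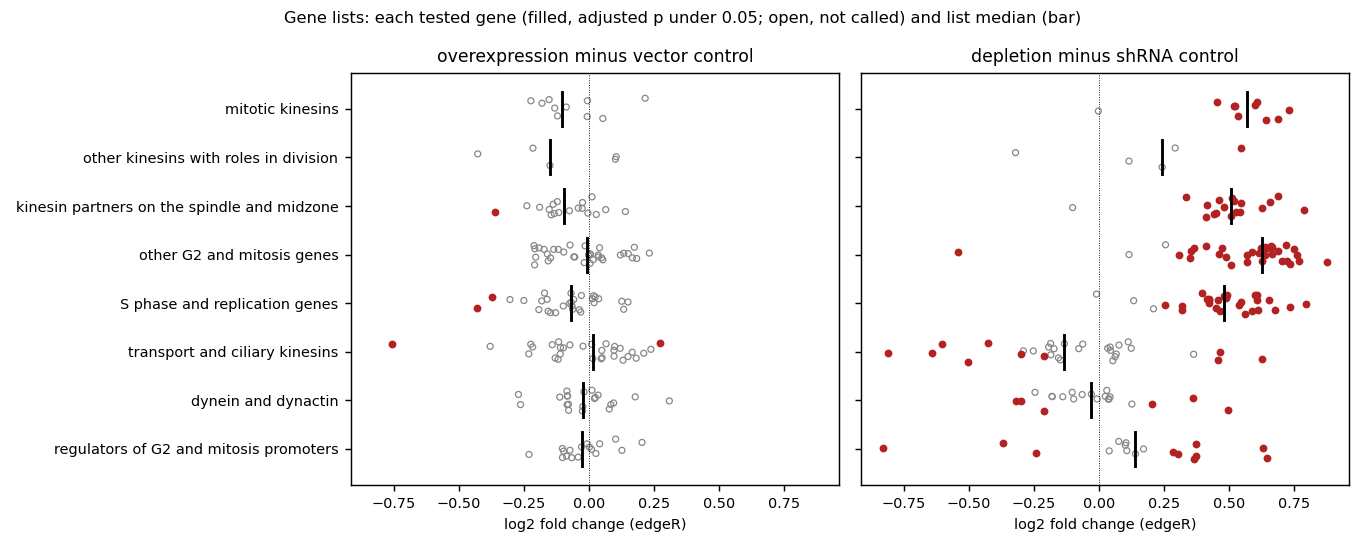
Log2 fold changes of the genes in each list on overexpression and on depletion (filled points: called genes, open points: genes not called, bars: list medians). On depletion the mitotic kinesins, their partners, other G2 and mitosis genes and S phase genes have medians between 0.48 and 0.63, and the transport kinesins and dynein genes have medians of -0.13 and -0.03.

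The rise was not limited to genes of mitosis. Among all genes 9.40% rose on depletion and 10.4% fell. Without vector control replicate 3 the calls over all genes were 4077 higher and 4282 lower, against 2450 and 2722 with it. Of 34 other G2 and mitosis genes 31 rose on depletion and 1 fell (33 and 1 without vector control replicate 3). Their median log2 fold change was 0.63. PTTG1, the securin that holds separase in check, rose by 0.88, BUB1, a kinase of the spindle checkpoint, by 0.77, CENPF, a kinetochore protein, by 0.76 and NEK2, a centrosomal kinase, by 0.72. CENPN, a centromere protein, fell by 0.54 on the log2 scale (edgeR adjusted p = 4.441e-06). Of 29 S phase and replication genes 26 rose (28 without that library), with a median of 0.48, among them GINS4 (0.80) and PRIM1 (0.74), parts of the replicative helicase and of primase, and PCNA (0.68), the sliding clamp. On overexpression CDC45 (-0.43, edgeR adjusted p = 0.01011) and MCM5 (-0.37, adjusted p = 0.02242) fell.

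Of 17 regulators of such promoters, 7 rose and 3 fell on depletion (8 and 3 without vector control replicate 3). Their median log2 fold change was 0.14. Among all genes 9.40% rose and 10.4% fell. Without vector control replicate 3, 4077 of all genes were called higher and 4282 lower. FOXM1, a forkhead activator of G2 and mitosis genes, rose from 46.2 ± 3.68 to 71.7 ± 2.27 CPM (SD, n = 3 each; log2 0.63, edgeR adjusted p = 8.864e-06). LIN9, a subunit of the MuvB core, rose by 0.65 on the log2 scale (edgeR adjusted p = 1.918e-05). CDKN1A, a cyclin-dependent kinase inhibitor, fell from 123 ± 6.21 to 69.2 ± 4.01 CPM (log2 -0.83, edgeR adjusted p = 2.758e-06). The CDKN1A level in the vector control was 190 ± 26.4 CPM, so among the groups it did not follow the order of the kinesins.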

How the data were processed

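The authors deposited 1 table of raw read counts per Ensembl gene ID. Per the submitters' processing notes, the tools were STAR 2.5.2a, featureCounts 1.5.0-p3 and DESeq2 1.14.1, with the hg19 build. Which annotation was counted, with which strand setting, and how reads with several hits were treated is not given in the sources used here. A stranded total RNA kit was used, per the labels' protocols.

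Columns were matched to samples by name and genes to symbols by ID, and 191 of 192 list entries were found. The analysis used edgeR 4.0.16 under R 4.3.3: filterByExpr by group (26076 genes), TMM scaling, glmQLFit on all 12 libraries and glmQLFTest for each contrast, with Benjamini-Hochberg adjustment over all tested genes and a threshold of 0.05. The scripts were tested on simulated data. CPM used TMM-scaled library sizes, and exon lengths came from GENCODE by ID. Libraries of a group differed beyond counting error (the smallest chi-square per degree of freedom was 7.21), and each was taken as 1 replicate. Promoters came from RefSeq on GRCh38.p14, in a search of 300-base windows for all 10 members. hg19 coordinates of genes were not used here. Protein sequences were not used here.

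Alternatives were RLE scaling, no filter, at least 1 CPM in at least 3 libraries, only the libraries compared, a replicate block, no 20 most abundant genes, each library left out, limma voom (limma 3.58.1) and DESeq2 1.42.0. Counts of the other lists without vector control replicate 3 and the letters TTCGAA and TTTAAA were added after seeing the data. The members and lists were chosen with earlier results of these data known. Genes named are the members, USP22, called members of the list of other division kinesins, in each other list up to 4 genes with the smallest p on depletion and up to 2 on overexpression, and the 5 genes with the most similar profile. Outside this rule, the division kinesins that were not called, KIFBP and CENPN were named after their values were seen. 1 gene that the rule names is not reported here.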

Additional observations from a re-analysis of the deposited data

How the results depend on the processing

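The count of kinesins higher on depletion was 8 to 9 with each library left out and 9 under every other alternative, and the count lower in the shRNA control than in the vector control was 9 under all of them. On overexpression the count of 0 became 1 with no filter, where KIF14 was called higher, 2 with DESeq2, and 0 to 2 with each library left out, the latter 2 without vector control replicate 3. The count lower after depletion than in the vector control was 6 to 9 with each library left out, and that of the difference of the responses 8 to 9. With no filter these counts were 8 and 9, KIF20B being called in both. The family's median log2 fold change with each library left out ranged from 0.57 to 0.62 on depletion, from -1.01 to -0.89 between the controls, from -0.40 to -0.32 for depletion against the vector control, from -0.11 to -0.06 on overexpression and from 0.58 to 0.69 for the difference of the responses. Values near 0 changed sign. On overexpression KIF11 was at 0.012 with no filter, 0.0222 with the CPM filter, 0.0109 with only the libraries compared and 0.0019 with voom, and between -0.1124 and 0.054 with each library left out. KIF15 was at 0.0127, 0.0228 and 0.0112 under the first 3 of these and between -0.0385 and 0.0321 with each library left out. KIF20B ranged from -0.1684 to 0.1852 and KIF22 from -0.1463 to 0.0282 with each library left out, the sign changing without vector control replicate 3. On depletion KIF22 was at 0.0107 with RLE scaling and with DESeq2, 0.0248 with no filter, 0.0068 with the CPM filter and 0.0035 with only the libraries compared, and between -0.0173 and 0.0721 with each library left out. For depletion against the vector control KIF14 ranged from -0.1326 to 0.0075 with each library left out, and for the difference of the responses KIF22 ranged from -0.0291 to 0.1454. KIF11 for depletion against the vector control also missed the threshold with only the libraries compared (-0.27; adjusted p = 0.08554 by edgeR). The cause of these changes was not tested.

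Counts over all genes moved more. On overexpression 1072 genes were called, against 2062 with no filter, 327 with only the libraries compared, 1786 with DESeq2, 1842 without vector control replicate 3 and 539, 501 and 630 without each overexpression library. On depletion 5172 were called, against 8115 with only the libraries compared and 8359 without vector control replicate 3, and for the difference of the responses 2840 against 5320 without it. Replicate numbers are shared by the groups, but the labels do not say that a number marks a shared culture or day, and deviations of same-numbered libraries correlated by -0.07 to 0.08. With the replicate number as a block, 0 kinesins were called on overexpression, 9 on depletion, 9 between the controls, 7 for depletion against the vector control and 8 for the difference, and the medians were -0.10, 0.57, -0.94, -0.38 and 0.62, so no count changed. Each member had at least 933 counts in each library.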
